A study of Homo sapiens with 4 samples.

Results

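The listed RNA sites of P5CS were examined on the transcripts of 8 growth driver genes, MYC, EGFR, MET, NRAS, CCND1, CDK4, CDK6 and MKI67. The members are the rows of the site list whose assigned gene symbol equals one of these names, which gave 40 of 17625 sites (0.227%). Of the 8 genes 7 had a site, against 13.2% of all protein-coding RefSeq genes, and NRAS had none. Without sites that lie in the span of another RefSeq gene, 5 had a site, since the only positions of MET and CDK4 lie in such spans. The share of all protein-coding genes under this filter was not worked out, and the 13.2% is not its counterpart. The genes and the site counts that led to them come from the same list, so the genes were chosen by the very counts described below, which carry no test.

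The study made LACE-seq libraries from NCI-H1299, an established human line labelled as lung adenocarcinoma. LACE-seq amplifies the ends of cDNA copied from RNA that an antibody has pulled down, so that the contact of a protein can be placed on the genome. There were 2 libraries with an antibody against P5CS, the enzyme that makes pyrroline-5-carboxylate on the way from glutamate to proline, and 2 with IgG, which has no chosen target. All 4 libraries came from the same line grown in the same medium, and no label names a treatment, a genetic change or separate cultures. The deposited list gives position, strand, region and assigned gene on hg38 and holds no value per library. Anti-P5CS and IgG were therefore not compared, the depth is unknown, no count below has a replicate error, and no source used here says whether sites seen with IgG were removed. Site positions fall on a grid of 20 bases, and the smallest width is 21 bases.

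Among marker genes of the labelled tissue, 1 of 5 epithelial genes (EPCAM, 2 sites) and 1 of 4 lung genes (NKX2-1, 1 site) had a site, and KRT8, KRT18, KRT19, CDH1, NAPSA, SFTPB and SFTPC had none. Of 3 mesenchymal genes VIM had 5, CDH2 had 4 and the remaining gene had none, and none of 3 neuroendocrine and 3 blood genes had a site. Over all protein-coding RefSeq genes 13.2% had at least 1 assigned site, so counts of 0 or 1 in lists this short do not tell the marker lists from other genes. The mesenchymal list, with 2 of 3, is as short and was not tested. A gene without a site is not shown to be silent, since the list holds no expression level. ALDH18A1, which encodes P5CS, had 0 sites.

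EGFR and MET are receptor tyrosine kinases that pass signals from growth factors outside the cell to RAS proteins such as NRAS and on to the MAP kinases. These signals raise MYC, a transcription factor of growth genes, and cyclin D1, the product of CCND1. Cyclin D1 activates the kinases CDK4 and CDK6, which phosphorylate RB and let the cell enter S phase, and Ki-67, the product of MKI67, coats chromosomes in mitosis and marks dividing cells. EGFR and MET are well known drivers of lung adenocarcinoma.

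The sequence could be read for the 1 position of MET, which lies whole in its RefSeq promoter window (GRCh38.p14), and for 1 of the 4 positions of CDK6, which the windows of CDK6 and CDK6-AS1 cover together. These windows run from 250 bases before to 50 after a gene's start. The MET and CDK6 sequences are shown because they place a site beside the start of the gene. Both are written 5′ to 3′ on the strand of the gene, with the site in capitals and 4 flanking bases on each side in lower case.
MET, chr7:116672156-116672184, plus strand: gaacCCGCGGACTAGGGGACGGACAgcac
CDK6, chr7:92836516-92836544, minus strand: acacGTGCGGAGAGCCGACTGACACtcgc
The MET site is 71.4% G or C and this CDK6 site 66.7%. Across all 170 positions of the smallest width that lay whole in a promoter window the median was 66.7%, and the mean was 67.3%, against 57.5% over 491624 stretches of 21 bases tiled through all windows. The word GGG stands in the MET site on the gene's strand and in neither strand of that CDK6 site. On the strand of the window's gene, GGG was present in 41.2% of those 170 positions and in 33.2% of the tiles, and on the other strand in 32.4% and 32.0%. Neither site held the words TTTT, AAAA or GGAGG on either strand. On the gene's strand these stood in 3.53%, 1.76% and 5.88% of the 170 positions and in 6.81%, 6.60% and 5.57% of the tiles, and on the other strand in 1.76%, 3.53% and 3.53% of the positions and in 6.60%, 6.81% and 5.29% of the tiles.

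The number of sites differed between the 8 genes, from 9 in EGFR to 0 in NRAS. EGFR had 9 sites (exact 95% Poisson interval 4.12 to 17.1), MKI67 had 8 (3.45 to 15.8), CDK6 and MYC had 7 each (2.81 to 14.4), and CCND1 had 5 (1.62 to 11.7). CDK4 and MET had 2 each (0.242 to 7.22). These intervals cover counting error only, they are too narrow because sites of 1 gene are not independent, and they overlap between EGFR and every gene that had a site. The median was 6 sites over the 8 genes and 0 over 20046 protein-coding RefSeq genes, of which 13.2% had at least 1 assigned site. Among all protein-coding genes, 2.16% had 5 or more, a count reached by 5 of the 8. By overlap with RefSeq spans 6 of the 8 had a site, against 13.5% of protein-coding genes. Of the 8 genes 7 had a site on the gene's own strand, against 9.08%, and 3 had a site wider than 21 bases, against 2.74%. There were 183 protein-coding genes with more sites than EGFR and 873 with more than CDK4 or MET.

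Longer genes had a site more often across the list, and the 8 genes span both ends of that range. Of protein-coding genes with a RefSeq span under 10 kb, 6.91% had a site, of those from 10 to 30 kb 11.3%, from 30 to 100 kb 15.5%, and above that 23.2%. MYC (7.52 kb) and CDK4 (4.58 kb) belong to the shortest class, CCND1 (13.3 kb), NRAS (12.3 kb) and MKI67 (29.8 kb) to the next, and MET (126 kb), EGFR (193 kb) and CDK6 (232 kb) to the longest. Per kb of span, MYC had 0.931 assigned sites, CDK4 0.436, CCND1 0.375, MKI67 0.269, EGFR 0.0467, CDK6 0.0302 and MET 0.0159. The MET sites counted in this rate lie outside its span. The CDK4 rate rests on 1 position listed on both strands, which also lies in the span of TSPAN31. The order per length therefore differs from the order by count, with the short MYC and CDK4 genes ahead of EGFR.

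**Figure D1:**
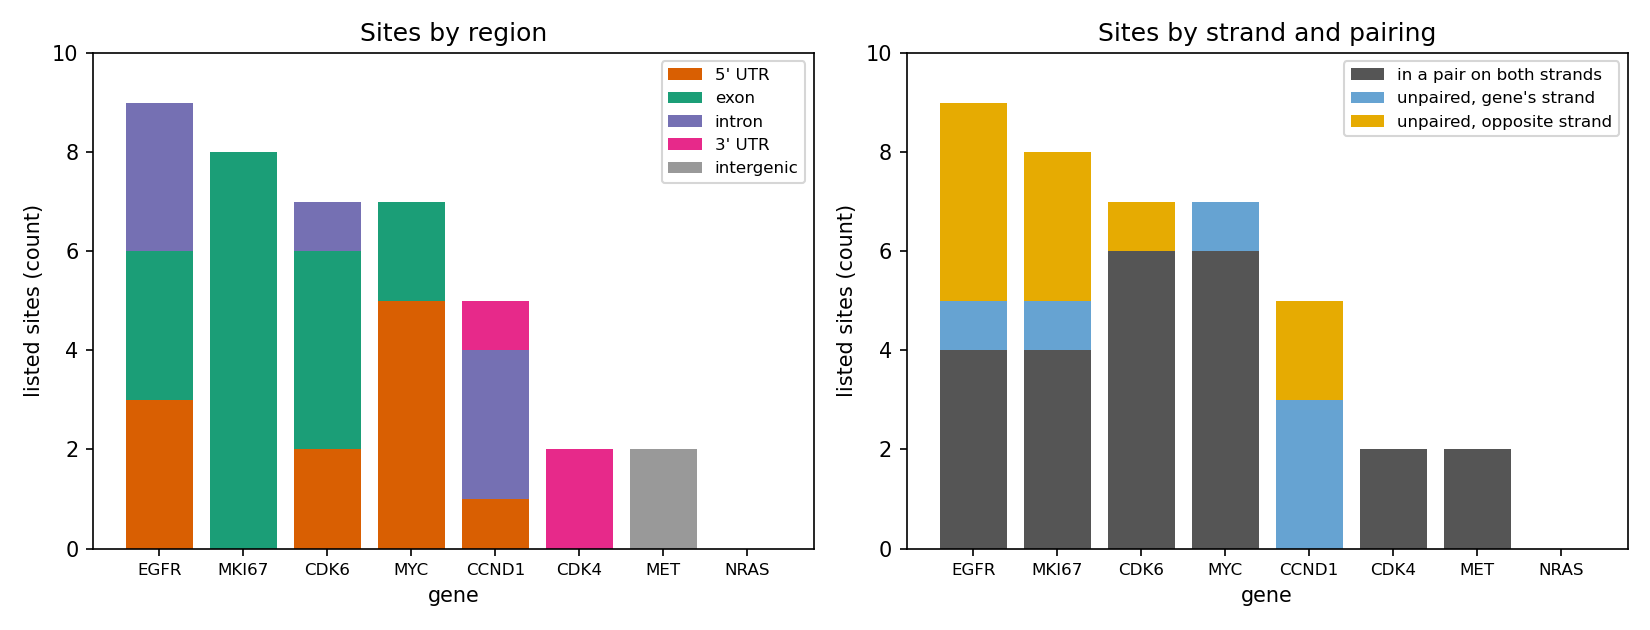
Number of listed sites (count, vertical axis) for each of the 8 genes, coloured by region on the left and by strand and pairing on the right. MKI67 is exonic throughout, MYC is mostly in the list's 5′ UTR class, and NRAS has no bar. CCND1 is the only gene with sites in which no site belongs to a pair.

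EGFR, the receptor for epidermal growth factor, had its sites at the 2 ends of the gene (chromosome 7, 55019017 to 55211628). Of the 9 sites, 6 began between 143 and 1143 bases past the transcript start. They comprised 3 sites in the 5′ UTR, at 55019160 to 55019180, 55019180 to 55019220 and 55019240 to 55019260, and 3 in intron 1, of which 1 lay at 55019400 to 55019420 and 2 formed a pair at 55020160 to 55020180. A gap of 171639 bases without a site followed. The other 3 sites were exonic, 1 in exon 21 of 28 at 55191820 to 55191840, an exon that encodes part of the kinase domain, and a pair in exon 28 at 55205320 to 55205340. These lay at 89.7% and 96.7% of the RefSeq span. The 6 sites near the start were assigned to a shorter transcript than the 3 at the far end, so intron and exon numbers refer to different transcripts.

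On EGFR, 6 of 9 sites (66.7%, exact 95% binomial interval 29.9 to 92.5) lay on the strand opposite to the gene. Of its 5 unpaired sites 4 were opposite. A pair here means the same coordinates listed on both strands, and 4 of 9 EGFR sites were in pairs. The first 2 sites, on opposite strands, share 1 base at 55019180 without having the same coordinates. The antisense gene EGFR-AS1 (55179750 to 55188949) overlapped none of the 9 sites.

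MET, the receptor for hepatocyte growth factor, had 1 position, listed on both strands, just ahead of its start. The pair lay at 116672160 to 116672180 on chromosome 7, and its near edge was 16 bases upstream of the start at 116672196. The list calls it intergenic, and its own distances differ between the strands, giving -36 on the minus and -16 on the plus strand. No site lay within the RefSeq span of MET (116672196 to 116798377). The pair does lie within the RefSeq span of COMETT, a long noncoding RNA gene (116563594 to 116688027). Reads from MET and from COMETT cannot be told apart by position here.

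NRAS, a RAS protein that carries the receptor signal to the MAP kinases, had no site in its span (chromosome 1, 114704469 to 114716771). The nearest listed site lay 167189 bases away, at 114537260 to 114537280, and had no gene symbol. Of protein-coding genes in the same length class 11.3% had a site, so a gene of this length without one is the more frequent case.

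MYC, the transcription factor, carried its 7 sites at 4 positions, 3 of them in the 5′ UTR class. In this gene (chromosome 8, 127735434 to 127742951) a pair lay at 127736280 to 127736300, 846 bases past the transcript start. A single site on the gene's strand lay at 127736440 to 127736460, and a second pair of the 5′ UTR class at 127738440 to 127738460. The list does not say which transcript its 5′ UTR class refers to. Whether this second pair is untranslated in every MYC transcript was not checked. The last pair, at 127738740 to 127738760, was in exon 2 of 3. All 7 sites were 21 bases wide and lay between 11.4% and 44.1% of the span, and the rest of the gene, its 3′ UTR included, had none.

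The 5′ UTR class held 5 of the 7 MYC sites (71.4%, 29.0 to 96.3). These 5 include the second pair, which was not checked to be untranslated in every MYC transcript. The comparison that follows takes the class as listed. Among 432 protein-coding genes with 5 or more sites, 158 (36.6%) had any 5′ UTR site, and 9 (2.08%), MYC among them, had a 5′ UTR share at least as large. On MYC 3 of 7 sites (42.9%, 9.90 to 81.6) were opposite to the gene, and 6 of 7 were in pairs. The neighbouring PVT1 held the nearest other site, 52629 bases beyond the end of MYC.

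CCND1, which encodes cyclin D1, had sites spread from the first to the last part of the gene (chromosome 11, 69641156 to 69654474). A 5′ UTR site lay at 69641280 to 69641300, 124 bases past the start. Intron 3 of 4 held 2 sites that share their last bases on opposite strands, at 69646860 to 69646900 on the minus strand and 69646880 to 69646900 on the plus strand. Intron 4 held 1 at 69649180 to 69649200, and the 3′ UTR 1 at 69654220 to 69654240, at 98.2% of the span. Of the 5 sites 2 (40.0%, 5.27 to 85.3) were opposite to the gene and 0 were in a pair of identical coordinates.

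CDK4, a kinase partner of cyclin D1, had 1 position, listed on both strands in the 3′ UTR class, at 57749180 to 57749200 on chromosome 12. This position lay 1453 bases inside the end of CDK4 (57747727 to 57752310) that is farther from its start. It also lay in the RefSeq span of the neighbouring gene TSPAN31 (57745039 to 57750219), which encodes a tetraspanin, 1019 bases before that span's end. The list does not say to which transcript the 3′ UTR belongs, so the pair cannot be given to CDK4 alone.

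CDK6, the other kinase partner of cyclin D1, had 7 sites at 4 positions of its long span (chromosome 7, 92604921 to 92836573), and 4 of the 7 also lay in the span of another RefSeq gene. A pair at 92836520 to 92836540, whose sequence is printed above, was in the 5′ UTR class 33 bases past the start, and lay in the span of CDK6-AS1 as well (92836483 to 92917187). A second pair at 92833240 to 92833260 was in exon 2 of 8, 657 bases past the start of a different assigned transcript. A single site on the opposite strand lay in intron 4 of 7, at 92718060 to 92718080.

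The last CDK6 pair, at 92701720 to 92701760, was 41 bases wide and does not lie in an exon of CDK6. The list calls it exonic because it lies in a single-exon transcript of another gene, ENSG00000206763.1. RefSeq places RNU6-10P there, a pseudogene of the U6 small nuclear RNA (92701709 to 92701814). U6 has many similar copies in the genome. Whether the reads at this site map to this copy alone was not checked, as the list holds no reads. Of 1277 U6 pseudogenes with names of this form, 159 (12.5%) had a site. Without this pair CDK6 had 5 sites, and without every site shared with another RefSeq gene it had 3. Of all 7 sites 4 (57.1%, 18.4 to 90.1) were opposite to the gene and 6 were in pairs.

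MKI67, which encodes the proliferation marker Ki-67, had 8 sites, and all of them were exonic. They lay in the second part of the gene (chromosome 10, 128096659 to 128126423), from 59.4% to 84.0% of its span. Exon 12 of 14 held 7 of them across 5601 bases, and exon 13 held the other, at 128101420 to 128101440. Within exon 12 there were pairs at 128103140 to 128103160 and 128103460 to 128103480, and single sites at 128103640 to 128103660, 128108660 to 128108680 and 128108720 to 128108740. No site lay in an intron, a UTR or within 17464 bases of the start.

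All 8 MKI67 sites were 21 bases wide, and 5 of 8 (62.5%, 24.5 to 91.5) were opposite to the gene. Of its 4 unpaired sites 3 were opposite and 1 was on the gene's strand. An all-exonic set was found for 62 (14.4%) of the 432 protein-coding genes with 5 or more sites, MKI67 included.

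**Figure D2:**
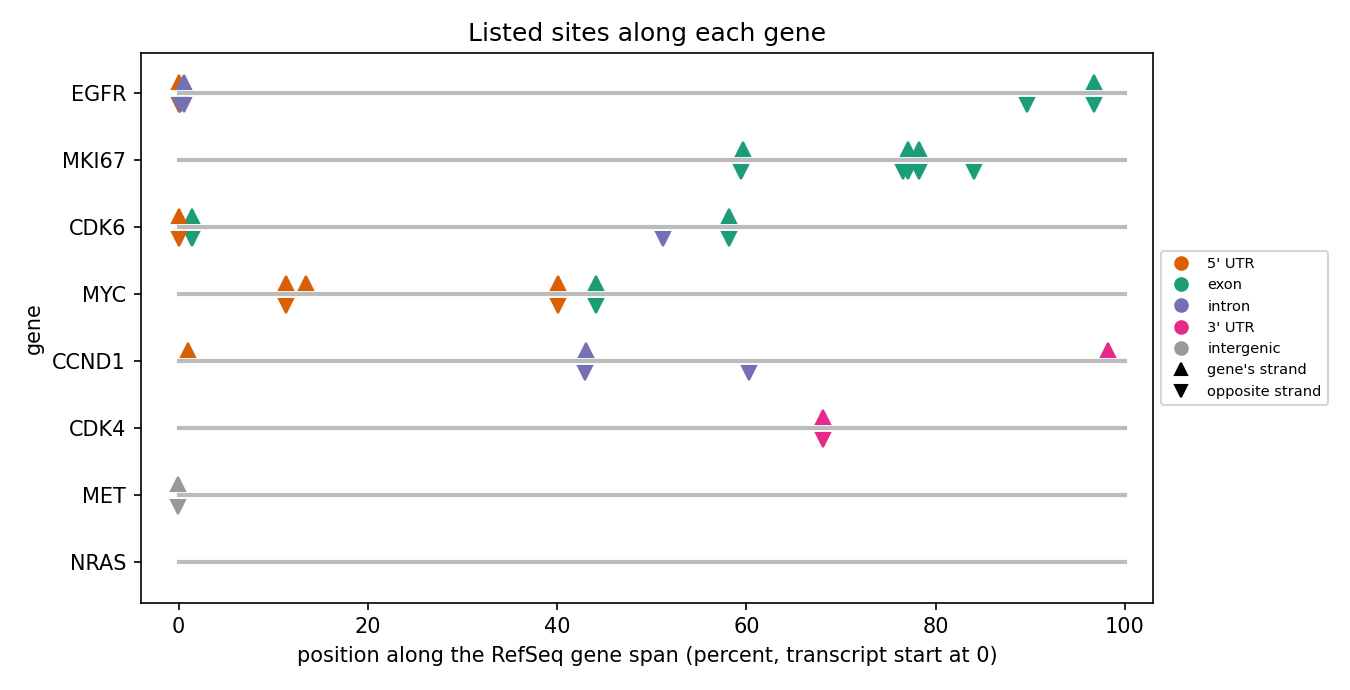
Each listed site by its position along the RefSeq span of its gene (horizontal axis, percent, transcript start at 0), with genes in rows. Colours give the region, triangles above the line the gene's strand and below it the opposite strand. EGFR sites stand at both ends with symbols overlapping near 0, MYC sites lie between 11.4% and 44.1%, and MKI67 sites between 59.4% and 84.0%.

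Set together, the 40 sites held more of the list's 5′ UTR class and fewer intronic ones than the sites of other protein-coding genes, as a description. The 5′ UTR class had 11 sites (27.5%, 14.6 to 43.9), against 8.27% (7.73 to 8.83) of the 9942 sites of other protein-coding genes. Introns had 7 (17.5%, 7.34 to 32.8) against 36.4% (35.5 to 37.4), and exons 17 (42.5%, 27.0 to 59.1) against 44.2% (43.2 to 45.2). The exon count includes the CDK6 pair in RNU6-10P, without which it was 15 of 38 (39.5%, 24.0 to 56.6). The 3′ UTR had 3 sites (7.50%, 1.57 to 20.4) against 8.04% (7.51 to 8.59). The 5′ UTR sites came from MYC, EGFR, CDK6 and CCND1, and without MYC they were 6 of 33 (18.2%, 6.98 to 35.5). The 11 include the second MYC pair of that class, which was not checked to be untranslated in every MYC transcript. No test was made of these differences, because the sites of 1 gene are not independent and the genes were chosen with the list known.

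Sites within 1000 bases of the assigned transcript start were 13 of 40 (32.5%, 18.6 to 49.1), from MYC, EGFR, CDK6, CCND1 and MET. The 2 CDK6 pairs counted here were measured from the starts of different transcripts. A gap of 3259 bases lies between these pairs. The share was 14.6% (14.0 to 15.4) for other protein-coding genes. On strand and width the shares lay closer. Of the 40 sites 22 (55.0%, 38.5 to 70.7) were opposite to the gene, against 59.9% (59.0 to 60.9), and 36 (90.0%, 76.3 to 97.2) had the smallest width, against 83.7% (83.0 to 84.5). The 4 wider sites, 1 in EGFR, 1 in CCND1 and the pair of CDK6 in RNU6-10P, were each 41 bases wide.

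Pairs made up 24 of the 40 sites (60.0%, 43.3 to 75.1), against 45.4% (44.5 to 46.4) among other protein-coding genes. The 12 pairs lay in 6 genes, 3 each in MYC and CDK6, 2 each in EGFR and MKI67, and 1 each in MET and CDK4. Each pair has by construction 1 site on each strand. Of the 16 unpaired sites 10 were opposite to the gene and 6 were on its strand. The strand therefore does not say for most of these sites which strand's RNA was contacted. Among the 9942 sites of other protein-coding genes, 5959 were opposite and 4518 were in pairs. If each of those pairs also has 1 opposite site, most of their unpaired sites were opposite too. The unpaired counts, here and per gene, therefore do not set the members apart from other genes.

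**Figure D3:**
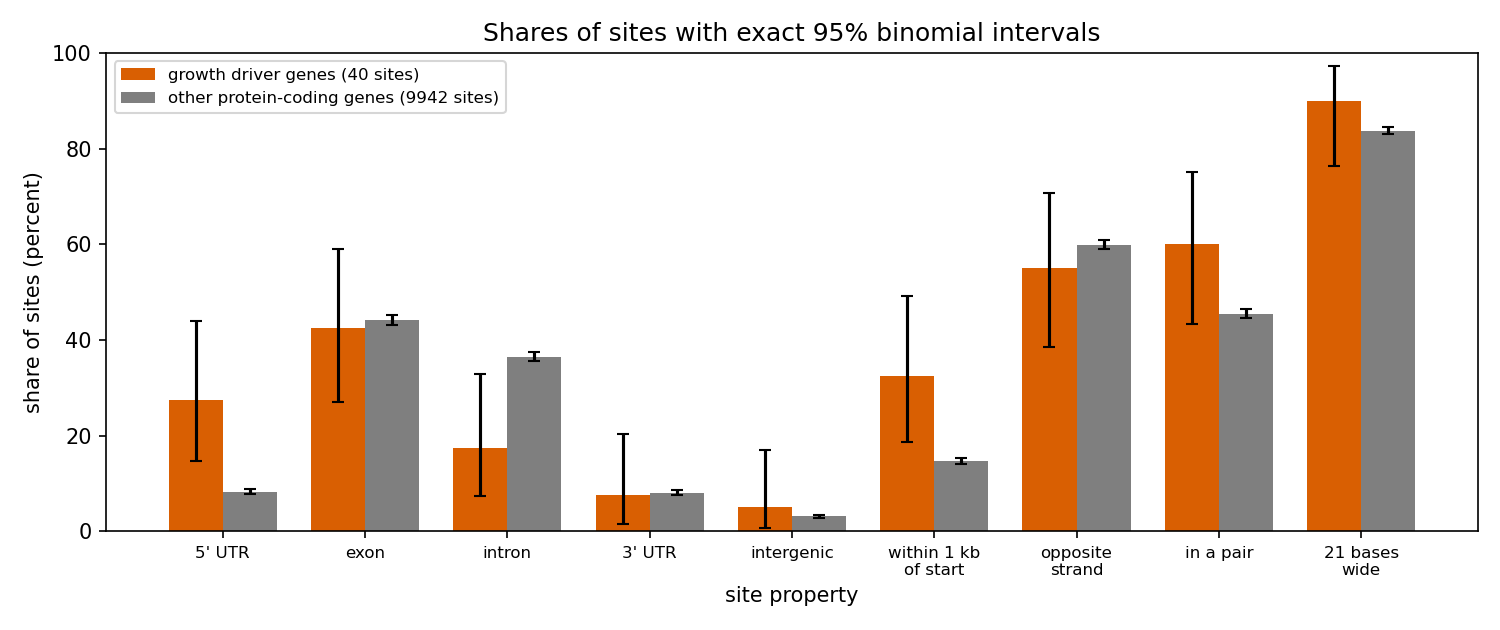
Share of sites (percent, vertical axis) with each property for the 8 growth driver genes and for all other protein-coding genes. Bars are shares and lines are exact 95% binomial intervals, which are too narrow because sites of 1 gene are not independent. The share of the list's 5′ UTR class is 27.5% against 8.27%, and the opposite-strand shares are 55.0% and 59.9%.

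The genes whose sites were most like those of a member were found by comparing 6 shares, the 4 of exon, intron, 5′ UTR and 3′ UTR, the opposite-strand share and the pair share, over the 432 genes with 5 or more sites. A summed difference of 0 means identical shares. The nearest to MYC were ADGRG6, an adhesion receptor (difference 0.357, 6 sites, 4 of them in the 5′ UTR), and TGFB1, the growth factor TGF-beta 1 (0.381, 21 sites, 13 in the 5′ UTR). For EGFR they were the splicing factor gene SRSF5 (0.222, 12 sites) and GOLGA8A, of a Golgi protein family (0.278, 6 sites). CDK6 stood nearest to EZR, which encodes the membrane linker ezrin, and to the glycosyltransferase gene MGAT4B (0.286 and 7 sites each). MKI67 stood nearest to CLSTN1 and RCC1 (0.125 each), both with 8 sites, all exonic. CLSTN1 encodes a calsyntenin and RCC1 the nucleotide exchange factor of RAN. CCND1 had no close match, and its nearest genes, EPB41L2 and LANCL2 with 5 sites each, were 0.800 away.

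Other genes of the same pathway were counted in 6 lists with the 8 members left out, and 28 of 105 genes (26.7%) had a site, against 13.2% of all protein-coding genes. The median number of sites was 0 in each list, as it was over all protein-coding genes. Their 95 sites were opposite to the gene in 60.0% (49.4 to 69.9) and in pairs in 56.8% (46.3 to 67.0), and 9.47% (4.42 to 17.2) were in the 5′ UTR.

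Among receptor kinases 5 of 17 had a site (29.4%, against 13.2% of all protein-coding genes). EPHA2, an ephrin receptor, had 32, more than any of the 8 members, with 13 in exons, 11 in introns, 6 in the 3′ UTR and 2 in the 5′ UTR. ERBB4, a relative of EGFR, had 6, all intronic and all in pairs, and the fibroblast growth factor receptor FGFR1 had 3, of which 2 were in the 5′ UTR. Among growth factor ligands 1 of 11 (9.09%) had a site, EGF, which binds EGFR, with 3 in exons. In the RAS and MAP kinase list 5 of 21 (23.8%) had a site. SHC1, the adaptor between receptors and RAS, had 6, all exonic, and SPRY4, an inhibitor of this pathway, had 2 in the 3′ UTR.

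In the MYC network 1 of 12 genes had a site (8.33%, against 13.2% of all protein-coding genes). That gene, MXD3, encodes a partner of MAX that opposes MYC, and had 1 in an exon. Among G1 cyclins, kinases, inhibitors, RB and E2F genes 8 of 21 (38.1%) had a site. CCND3, which encodes cyclin D3, had 4, all exonic, E2F3 had 4, 2 in exons and 2 in introns, and E2F1 had 3. Both E2F genes encode transcription factors held in check by RB. In the replication and mitosis list 8 of 23 (34.8%) had a site. The helicase subunit gene MCM7 and the spindle factor gene TPX2 had 3 each, and CDC20, an activator of the anaphase-promoting complex, had 2 in the 5′ UTR.

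**Figure D4:**
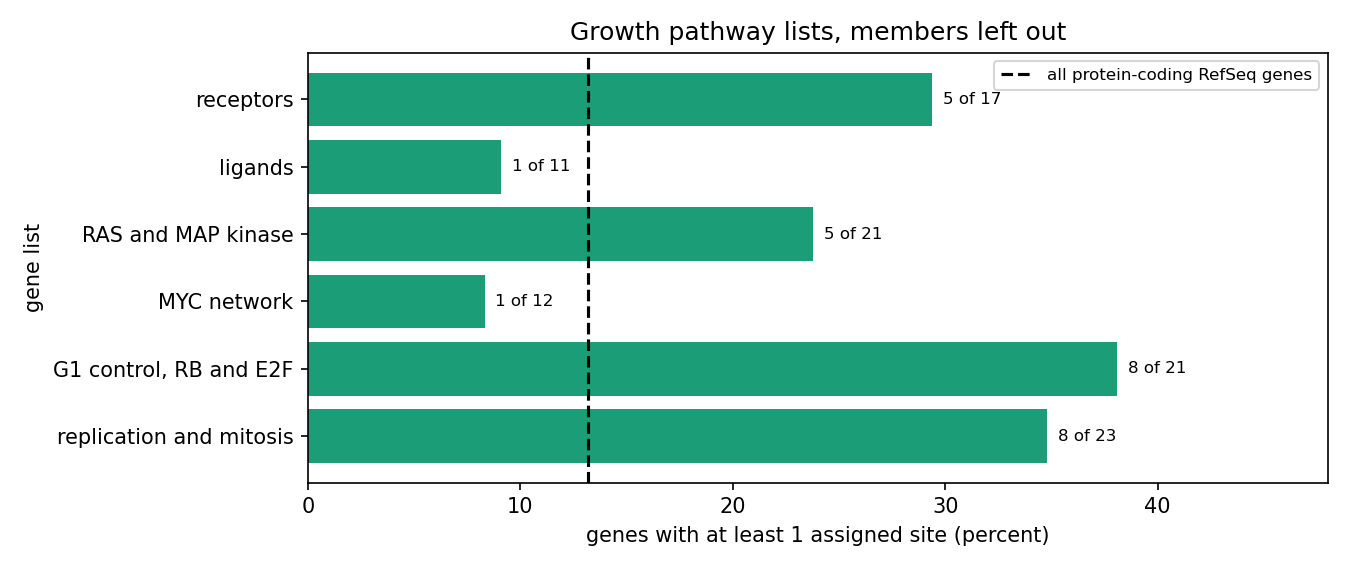
Percent of genes with at least 1 assigned site (horizontal axis) in each of 6 growth pathway lists, with the count beside the bar. The dashed line is the 13.2% of all protein-coding RefSeq genes. The ligand and MYC network lists lie below the line and the other 4 above it.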

How the data were processed

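The site list was deposited by the authors as 1 table of the whole series. Among tools, fastp 0.23.2 and STAR 2.7.10a appear, per the submitters' processing notes, without a stated role, beside the build hg38. How sites were called, at what cutoff, whether replicates were pooled and how IgG entered is stated by no source used here. The columns hold positions, widths and distances in bases, per the file headers, and 0 columns hold values per library, so edgeR or another count test planned for that case was not run. Members were found by the symbol column, which is empty for 3465 sites. RefSeq gene spans (GRCh38.p14) were overlapped by at least 1 base on either strand, and protein-coding genes were matched by Entrez ID. Distances run from the start of the assigned transcript to the nearest edge of the site. The members, lists and naming rule were chosen with earlier results of these data known. The named genes are the 8 members, ALDH18A1, the 3 genes with most sites in each growth list (ties by name), and the 2 most similar genes for each member with 5 or more sites. The marker genes are named beside these, and 1 gene that the rule would name is not reported here. Pair, strand, overlap and merging steps were tested on simulated data. Python 3.11.15, pandas 2.3.3, numpy 2.4.6, scipy 1.17.1 and matplotlib 3.10.9 were used. Alternatives were RefSeq spans for assignment, pairs counted once, the gene's strand only, wider sites only, sites within 100 bases merged, and the list without the member with most sites.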

Additional observations from a re-analysis of the deposited data

How the results depend on the processing

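With only sites wider than 21 bases, 3 of the 8 genes had a site and 4 sites were left, and 5 of the 105 other pathway genes had one. Over all protein-coding genes 2.74% had a site of such width. With only sites on the gene's strand the 8 genes had 18 sites, and 18 of the 105 pathway genes had a site. The share over all protein-coding genes was then 9.08%. Merging sites within 100 bases left 24 sites. By overlap with RefSeq spans 6 genes had a site, since the MET pair lies outside its span, against 13.5% of all protein-coding genes. Without sites shared with another RefSeq gene, an alternative added after seeing the data, 5 genes with 32 sites were left, with none for MET or CDK4. For this alternative the share over all protein-coding genes was not worked out. The exon, 5′ UTR, start-near, opposite-strand, pair and smallest-width shares stayed within the binomial interval of the main value under every alternative run. Most alternatives are subsets of the same sites and the intervals are wide, so this was nearly fixed in advance and does not show that the shares are stable. The exon share ran from 38.9% to 50.0% and the 5′ UTR share, added later, from 25.0% to 33.3%. The values 50.0% and 25.0% come from only the 4 wider sites. Counting any shared base on the opposite strand as a pair, also added later, raised the pair share to 70.0%. A stricter site threshold and leaving out a replicate could not be run, as the list has no score and no values per library. No paired analysis was possible because the list holds no values per library.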
